A study of Mus musculus with 36 samples.

Results

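The core circadian clock genes Arntl, Clock, Npas2, Per2, Per3, Cry1, Cry2, Nr1d1, Nr1d2 and Dbp were followed in RNA-sequencing libraries from the mouse anterior cingulate cortex (aCC), a frontal midline area of the cerebral cortex. They were chosen by name, with earlier results of these data known, from the core loop (Per1 apart) and its best known output factor. They are 10 of the 52636 genes in the table, and all 10 were found, were above 0 in every library and passed the filter on low values. Levels are in TPM, a share of each library's transcripts scaled for transcript length, so levels can be compared between genes. Differences are on the log2(TPM + 0.5) scale, on which low genes appear to change less than they do.

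The study asked how mice lacking 1 copy of Brd1, a gene for a chromatin scaffold protein linked to psychiatric disorders, respond to imipramine (IMN), a tricyclic antidepressant. The groups were wild-type (WT) mice on vehicle (n = 8), Brd1+/- mice on vehicle (n = 9), WT mice on IMN (n = 10) and Brd1+/- mice on IMN (n = 9), 1 library per mouse. All were young adult females of the strain labelled C57BL/6NTac-Brd1, in which Brd1+/- mice carry a targeted deletion in 1 Brd1 allele. IMN was given at 10 mg/kg and vehicle was saline. All 4 groups were injected subcutaneously on consecutive days and went through the tail suspension, open field and forced swim tests. They were killed soon after swimming, so the vehicle mice went through the same procedures. Behavior in the tests was not the same between groups. Per the paper, Brd1+/- mice on vehicle were more immobile than WT mice on vehicle in the tail suspension and forced swim tests. Brd1+/- mice on 10 mg/kg IMN were less immobile in both than those on vehicle. The labels give no clock time of injection, testing or brain collection for any mouse.

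The mammalian clock is a transcriptional feedback loop. BMAL1, the product of Arntl, pairs with CLOCK or with its paralog NPAS2 and activates genes through E-box elements, among them the Per, Cry and Nr1d genes and Dbp. PER and CRY proteins return to the nucleus and repress that activity, while the REV-ERB receptors, encoded by Nr1d1 and Nr1d2, repress Arntl and other genes with ROR response elements (RORE). DBP activates genes with D-box elements. In tissues sampled around the day, Arntl RNA peaks at the opposite phase to Nr1d1, Dbp and Per2, and some clock genes, Per1 and Per2 the best known, also respond to neuronal activity and glucocorticoids.

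The binding elements through which the loop is wired were looked up in the RefSeq promoters of these genes (mouse build GRCm38.p6, 250 bases before to 50 bases after each start), and the stretches with the most of them, together with those of the genes on which the later results turn, are shown first. The letters searched on both strands were the E-box CACGTG, its variant CACGTT, the D-box TTATGTAA or TTACGTAA and the RORE TAGGTCA or TGGGTCA. No searched motif contains another. A promoter was given for 9 of the 10 genes. The 250 bases before the start follow, 5′ to 3′ on the gene's strand, with each match in capitals.
Per3, chr4:151044666-151044915, minus strand: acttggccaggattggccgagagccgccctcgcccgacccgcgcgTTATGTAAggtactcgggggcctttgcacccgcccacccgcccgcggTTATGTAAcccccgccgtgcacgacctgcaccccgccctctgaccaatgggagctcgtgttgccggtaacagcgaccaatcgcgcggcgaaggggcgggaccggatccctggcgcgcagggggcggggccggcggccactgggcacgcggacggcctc
Cry1, chr10:85185055-85185304, minus strand: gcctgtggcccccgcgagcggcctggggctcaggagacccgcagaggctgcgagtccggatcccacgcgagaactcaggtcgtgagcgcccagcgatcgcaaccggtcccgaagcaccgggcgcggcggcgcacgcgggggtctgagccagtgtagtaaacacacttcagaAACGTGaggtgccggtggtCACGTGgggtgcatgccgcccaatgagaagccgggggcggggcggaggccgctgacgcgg
Ciart, chr3:95882229-95882478, minus strand: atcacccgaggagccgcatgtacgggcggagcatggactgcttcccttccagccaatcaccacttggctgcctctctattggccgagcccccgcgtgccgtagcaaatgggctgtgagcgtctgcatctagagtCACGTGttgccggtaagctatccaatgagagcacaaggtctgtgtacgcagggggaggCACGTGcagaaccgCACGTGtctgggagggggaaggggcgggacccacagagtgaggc
Bhlhe41, chr6:145865421-145865670, minus strand: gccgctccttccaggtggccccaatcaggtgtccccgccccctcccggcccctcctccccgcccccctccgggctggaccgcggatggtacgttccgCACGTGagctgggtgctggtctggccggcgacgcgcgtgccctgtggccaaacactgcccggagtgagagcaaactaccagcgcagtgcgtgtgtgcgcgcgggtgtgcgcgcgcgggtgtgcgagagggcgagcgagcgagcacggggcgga
Coq10b, chr1:55052520-55052769, plus strand: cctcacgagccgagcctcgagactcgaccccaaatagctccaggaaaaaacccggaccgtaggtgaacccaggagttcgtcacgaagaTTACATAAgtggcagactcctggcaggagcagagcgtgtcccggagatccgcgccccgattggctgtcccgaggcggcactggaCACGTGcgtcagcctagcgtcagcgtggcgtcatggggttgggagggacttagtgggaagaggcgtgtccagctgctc

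The Per3 stretch held 2 D-boxes, at -205 and -158 from the start, and the Cry1 stretch held an E-box at -60 next to its variant at -79. Among the 10 genes, the E-box was found in 1 of the 9 promoters (Cry1), the variant in 3 (Cry1, Cry2 and Nr1d1), the D-box in 1 (Per3) and the RORE in 1 (Arntl, at +30). Of 32851 RefSeq promoters of the same length, 7.15% held the E-box, 4.68% the variant, 1.06% the D-box and 6.45% the RORE. Ciart, a repressor of CLOCK and BMAL1, had 3 E-boxes at -116, -58 and -44, and Bhlhe41, an E-box repressor, had 1 at -153. Coq10b, a coenzyme Q binding protein gene with a daily rhythm in many tissues, had an E-box at -78 and a D-box on the opposite strand at -162. A match is a description of the letters, not a measured binding site.

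The deposited table gives no read counts, so the depth behind each value is unknown. Values summed to 999727–999889 TPM per library, and 24685 to 25517 genes were above 0. Brd1, as a check of the labels, was at 26.4 ± 3.0 (SD) TPM in WT vehicle mice and 16.8 ± 2.7 in Brd1+/- vehicle mice, and these groups did not overlap. On IMN it was at 23.3 ± 3.4 and 16.8 ± 2.1 TPM, and the ranges overlapped, with a lowest WT library at 17.9 and a highest Brd1+/- library at 19.4. Brd1 itself was not called by limma on vehicle (adjusted p = 0.062) or on IMN (adjusted p = 0.882), and was called over both treatments (adjusted p = 2.14e-05), so a gene with a difference of -0.64 on the log2 scale did not pass with 8 against 9 libraries. All 6 cortical projection neuron markers had a median of at least 1 TPM, while none of 5 choroid plexus markers did and Folr1 was at a median of 0. Brd1+/- vehicle replicate 6 stood apart, with a choroid plexus score, the mean log2(TPM + 0.5) over the markers, of 5.95 against at most 0.836 elsewhere, and a striatal neuron score of 6.83 against at most 4.46. WT vehicle replicate 1 stood apart in the clock genes themselves and is described with Per2. Values without either library are given beside many of the results, though not beside every one.

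The clock genes were all well expressed. Averaged over the 36 libraries, Nr1d1 was highest at 118 ± 17.8 TPM. Cry2 at 70.7 ± 8.2, Dbp at 70.6 ± 13.8 and Nr1d2 at 58.3 ± 6.8 formed the next step. Npas2 at 35.5 ± 5.6, Per2 at 32.5 ± 7.8, Arntl at 32.2 ± 4.8, Clock at 26.9 ± 5.6 and Per3 at 25.8 ± 3.2 came below, and Cry1 at 12.5 ± 2.2 TPM was lowest. Neighbours in this order differed by more than the larger of their SDs at 3 places, between Nr1d1 and Cry2, between Nr1d2 and Npas2 and between Per3 and Cry1; the other neighbours did not. Reads were counted with no stated use of strand, so the levels of Nr1d1, which overlaps the highly expressed Thra on the opposite strand, and of Dbp, which overlaps Sphk2, may include reads of the partner. Per3 and Clock overlap Camta1 and Ube2n-ps1 on the same strand.

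Between the groups the clock genes moved little. The ratio of the highest to the lowest group mean ran from 1.02 for Per3 to 1.29 for Per2, while the ratio of the highest to the lowest single library ran from 1.63 for Cry2 to 2.91 for Clock. The within-group SD on the log2 scale was smallest for Nr1d2 (0.162) and Cry2 (0.167) and largest for Clock (0.327) and Per2 (0.346), beside a median of 0.271 over all 25572 genes tested. Of the 10 genes, 6 varied less within groups than the median of 0.251 over genes whose mean level reached 1 TPM. Against the median over all genes the count was 8, with Cry1 (0.270) and Dbp (0.270) just under that median. The plot of levels by library shows the groups overlapping for every gene.

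**Figure D1:**
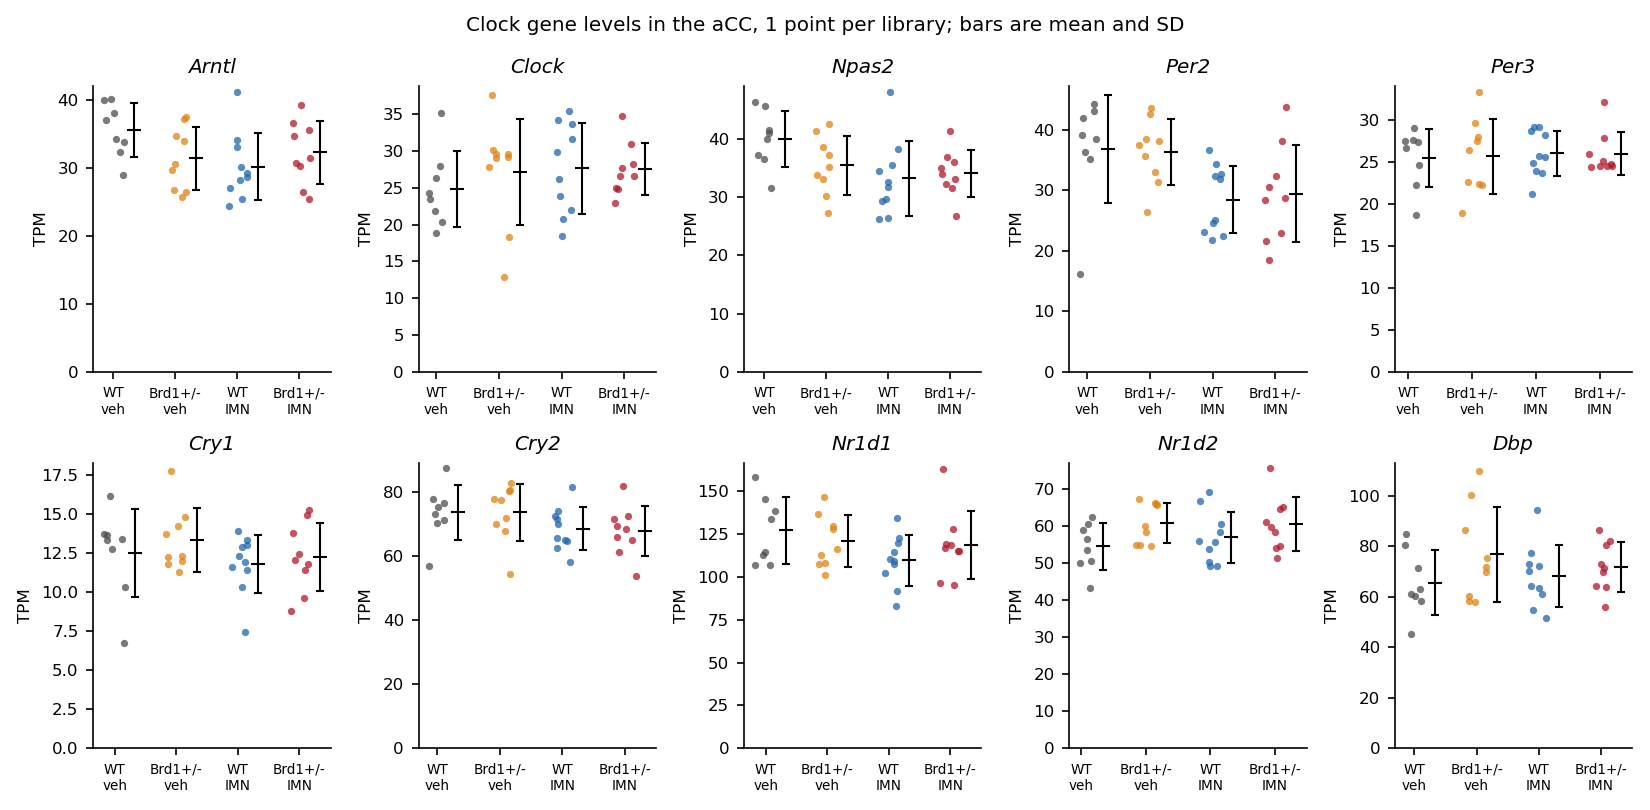
TPM of each clock gene in each of the 36 aCC libraries, by genotype and treatment on the x axis (8, 9, 10 and 9 mice from left to right), with bars for the mean and SD and each y axis starting at 0. The groups overlap for all 10 genes, and the Per2 panel shows WT vehicle replicate 1 at 16.1 TPM below the other WT vehicle libraries at 35.1 to 44.2.

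In no comparison did a clock gene pass the threshold when p-values were adjusted over all genes. With limma and Benjamini-Hochberg adjustment, 0 of the 10 were called in Brd1+/- against WT mice on vehicle, where 0% of all tested genes were called, and 0 in Brd1+/- against WT mice on IMN, also 0% of all genes. Under IMN against vehicle, 0 were called in WT mice (0% of all genes) and 0 in Brd1+/- mice (0.00782%). For the genotype by IMN interaction 0 were called (0%), for Brd1+/- against WT mice over both treatments 0 (0.00391%), and for IMN against vehicle over both genotypes 0 (0.254%, or 65 genes). At an unadjusted limma p under 0.05, the count in that order was 1 of 10 (3.75% of all genes), 0 (3.23%), 3 (6.6%), 1 (5.52%), 1 (3.2%), 1 (3.64%) and 2 (9.24%). Without Brd1+/- vehicle replicate 6 it was 0 for genotype on vehicle, for IMN in Brd1+/- mice and for the interaction. Without WT vehicle replicate 1 it was 3 for genotype on vehicle, 4 for IMN in WT mice and 3 for IMN over both genotypes. Calls over all genes at an adjusted p under 0.05 rose as well without that library. They went from 0 to 32 for IMN in WT mice and from 65 to 163 for IMN over both genotypes. The share of all genes at an unadjusted p under 0.05 is not given without either library. The comparisons share groups, so these counts are not independent of each other. DESeq2 and edgeR could not be run, since the table holds no counts. Permutation tests of single genes gave an unadjusted p under 0.05 in 8 of 60, and those 8 are described below by role. These tests were run only on the listed genes, so no share over all genes stands beside that count.

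**Figure D2:**
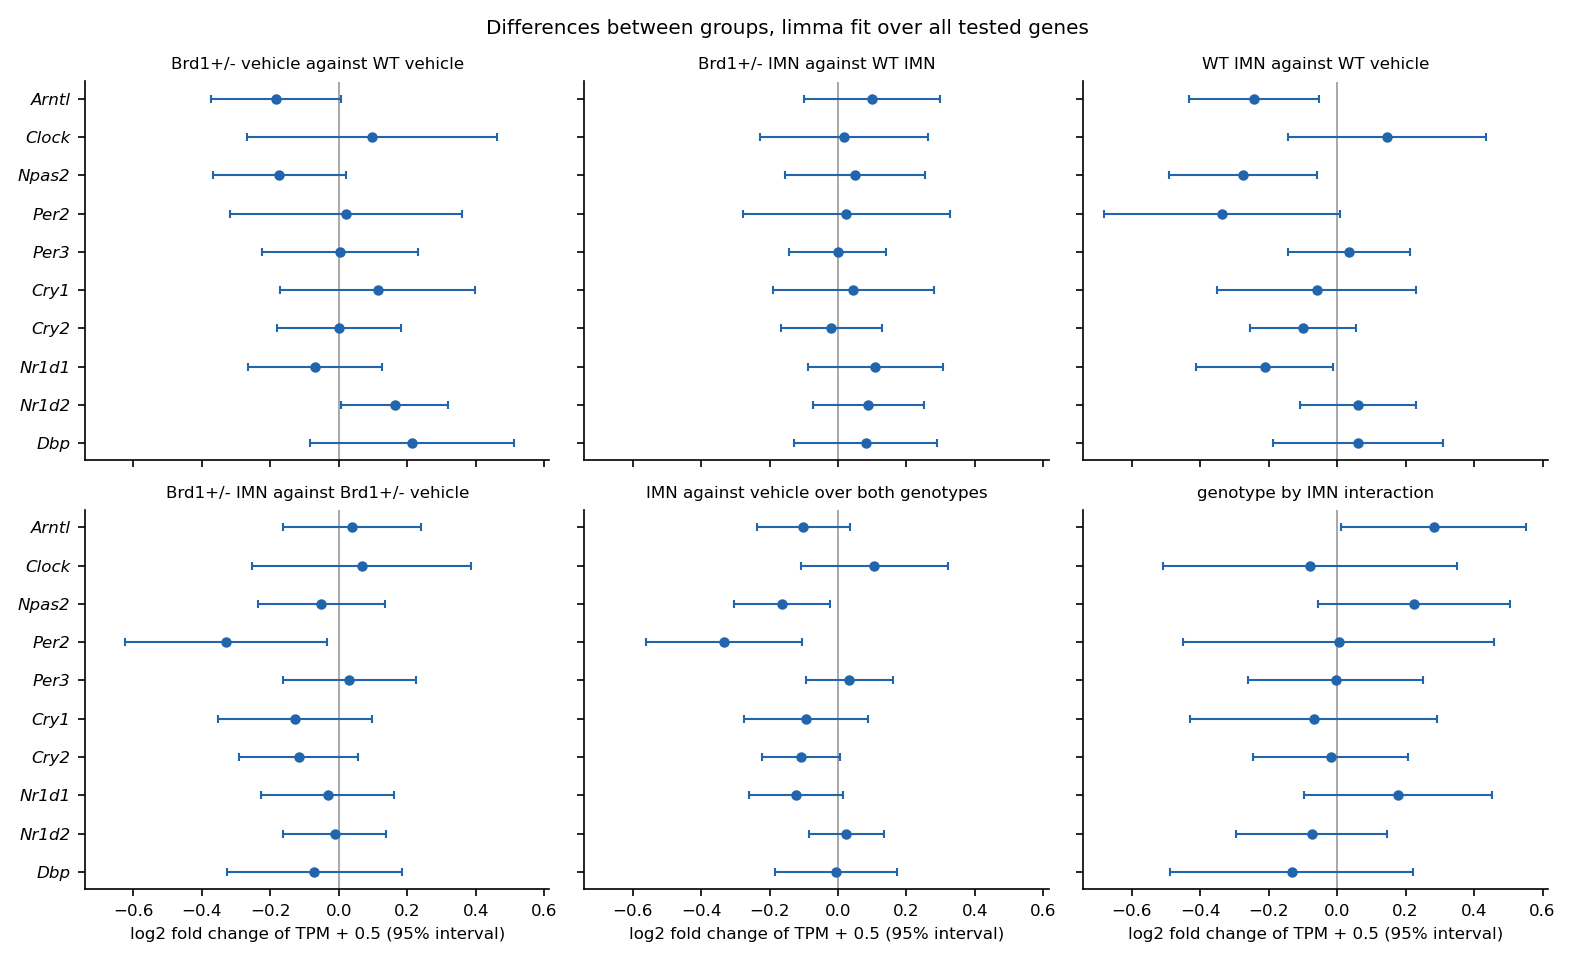
Log2 fold change of TPM + 0.5 with its 95% interval from limma for each of the 10 clock genes, one panel per comparison drawn. Brd1+/- against WT mice over both treatments has no panel. For IMN against vehicle over both genotypes the intervals of Per2 and Npas2 lie below 0. No adjusted p was under 0.05.

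Arntl, the indispensable activator of the loop, was at 29.0, 35.6 and 40.2 TPM (lowest, median and highest) in WT vehicle mice, at 25.7, 30.6 and 37.5 in Brd1+/- vehicle mice, at 24.4, 29.0 and 41.2 in WT mice on IMN and at 25.5, 31.4 and 39.2 in Brd1+/- mice on IMN. WT vehicle mice sat highest and the other 3 groups lay close together, with overlap throughout. In WT mice, IMN against vehicle differed by -0.24 on the log2 scale (SE 0.091, limma adjusted p = 0.659, exact permutation p = 0.021), and 9 of 10 mice on IMN were under the vehicle mean. In Brd1+/- mice the same difference was 0.04 (SE 0.096, exact permutation p = 0.693). The test of the difference between these effects, the interaction, was 0.28 (95% interval 0.01 to 0.55, limma adjusted p = 1.000), and 0.25 without Brd1+/- vehicle replicate 6. Brd1+/- against WT mice on vehicle differed by -0.18 (SE 0.091, exact permutation p = 0.066), with 7 of 9 below the WT mean, and by -0.22 without WT vehicle replicate 1 (exact permutation p = 0.029). Both the genotype comparison on vehicle and the IMN comparison in WT mice use the same 8 WT vehicle libraries.

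Npas2, the forebrain paralog of Clock, followed the same order as Arntl at its ends. Its lowest, median and highest levels were 31.5, 40.5 and 46.3 TPM in WT vehicle mice, 27.2, 35.1 and 42.5 in Brd1+/- vehicle mice, 26.2, 32.2 and 48.0 in WT mice on IMN and 26.7, 34.0 and 41.3 in Brd1+/- mice on IMN. WT vehicle mice were again highest, and the highest single library was a WT mouse on IMN. IMN against vehicle differed by -0.28 in WT mice (SE 0.104, limma adjusted p = 0.665, exact permutation p = 0.023, 9 of 10 below the vehicle mean) and by -0.05 in Brd1+/- mice. Brd1+/- against WT mice on vehicle differed by -0.17 (exact permutation p = 0.085), and by -0.22 without WT vehicle replicate 1 (exact permutation p = 0.026). Over both genotypes it was -0.16 (SE 0.069, limma adjusted p = 0.433, permutation p = 0.030), with 15 of 19 mice on IMN under the vehicle mean of their genotype. Clock, the other partner of BMAL1, ranged from 12.9 to 37.6 TPM with group means of 24.8 to 27.6, and its difference under IMN over both genotypes was 0.11 (SE 0.106).

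Among the repressors, Per2 showed the largest difference between group means of the 10 genes. PER2 is a core part of the PER and CRY complex, and its gene is also induced by activity and glucocorticoids. Its lowest, median and highest levels were 16.1, 38.8 and 44.2 TPM in WT vehicle mice, 26.3, 37.5 and 43.6 in Brd1+/- vehicle mice, 21.8, 28.5 and 36.6 in WT mice on IMN and 18.4, 28.7 and 43.7 in Brd1+/- mice on IMN. Both vehicle groups lay above both IMN groups in their medians, and all groups overlapped. Over both genotypes, Per2 differed by -0.33 under IMN (95% interval -0.56 to -0.11, SE 0.112), a level lower by 20.6%, with 16 of 19 mice on IMN under the vehicle mean of their genotype, a permutation p of 0.006 and a limma adjusted p of 0.252. The difference was nearly the same in WT mice (-0.34, SE 0.165, exact permutation p = 0.075, 9 of 10 below) and in Brd1+/- mice (-0.33, SE 0.141, exact permutation p = 0.043, 7 of 9 below). Without Brd1+/- vehicle replicate 6 the difference in Brd1+/- mice was -0.30 (exact permutation p = 0.076).

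The call for Per2 turned on 1 library. In WT vehicle replicate 1, Per2 was at 16.1 TPM while the other 7 WT vehicle libraries lay between 35.1 and 44.2. The same library was the lowest of all 36 for Per3, Cry1 and Dbp. Without it, Per2 over both genotypes differed by -0.41 with a limma adjusted p of 0.0261, and 163 genes in place of 65 were called. Without it, Per2 under IMN in WT mice was at -0.49 (limma adjusted p = 0.102, exact permutation p = 0.001), and in Brd1+/- against WT mice on vehicle it turned from 0.02 to -0.14. Without Brd1+/- vehicle replicate 6 the pooled difference was -0.32 (limma adjusted p = 0.312). Leaving out any other single library gave no call for Per2.

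The other repressors of the group varied less. Cry2, a cryptochrome gene, had group means of 73.6 and 73.6 TPM on vehicle and 68.5 and 67.7 on IMN (WT and Brd1+/-), a difference of -0.11 (SE 0.056, permutation p = 0.057) with 16 of 19 IMN libraries below. Without WT vehicle replicate 1 it differed by -0.13 (permutation p = 0.014), and in WT mice alone by -0.15 (exact permutation p = 0.029). Its paralog Cry1 ranged from 6.8 to 17.7 TPM with group means of 11.8 to 13.3, and differed by -0.09 (SE 0.089, permutation p = 0.306). Per3, a PER paralog that is not required for the loop, had nearly equal group means of 25.5, 25.7, 26.1 and 26.0 TPM, and its difference of 0.03 had a 95% interval of -0.09 to 0.16. With all libraries, Cry1, Cry2 and Per3 gave no permutation p under 0.05 in any comparison.

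Nr1d1, which encodes REV-ERB alpha, was at 107, 124 and 158 TPM (lowest, median and highest) in WT vehicle mice, at 101, 116 and 147 in Brd1+/- vehicle mice, at 82.9, 110 and 134 in WT mice on IMN and at 95.1, 117 and 163 in Brd1+/- mice on IMN. WT mice on IMN sat lowest and all groups overlapped. IMN against vehicle in WT mice differed by -0.21 (SE 0.095, limma adjusted p = 0.736, exact permutation p = 0.049), with 9 of 10 below the vehicle mean, and by -0.18 without WT vehicle replicate 1 (exact permutation p = 0.097). The difference was -0.03 in Brd1+/- mice and -0.12 over both genotypes (SE 0.068, permutation p = 0.089).

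Nr1d2, which encodes REV-ERB beta, was the clock gene with an unadjusted permutation p under 0.05 by genotype when all libraries were used. Its lowest, median and highest levels were 43.3, 55.1 and 62.6 TPM in WT vehicle mice, 54.6, 60.0 and 67.4 in Brd1+/- vehicle mice, 49.2, 55.8 and 69.2 in WT mice on IMN and 51.4, 59.8 and 75.6 in Brd1+/- mice on IMN. Brd1+/- mice lay above WT mice in their medians on either treatment, and the groups overlapped. On vehicle the difference was 0.16 (SE 0.075, limma adjusted p = 1.000, exact permutation p = 0.042), and 9 of 9 Brd1+/- libraries lay above the WT mean. It was 0.15 without Brd1+/- vehicle replicate 6 (exact permutation p = 0.073). In the same comparison 8 of 8 striatal neuron, 8 of 8 oligodendrocyte and 4 of 4 tested choroid plexus markers had a higher mean in Brd1+/- mice, with 0 called. These counts include Brd1+/- vehicle replicate 6 and were not taken without it. Its striatal neuron, oligodendrocyte and choroid plexus scores of 6.83, 7.31 and 5.95 were the highest of its group. Across libraries Nr1d2 had an r of 0.39 with the mean log2 level of the oligodendrocyte markers (permutation adjusted p = 0.065). The part of these markers in the difference was not tested. Over both treatments the Nr1d2 difference was 0.13 (SE 0.054, permutation p = 0.025, limma adjusted p = 1.000), a level higher by 9.1%, with 15 of 18 above the WT mean of their treatment. It was 0.12 without replicate 6 (permutation p = 0.038). Nr1d1, its paralog, differed over both treatments by 0.02 (SE 0.068).

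Dbp, the D-box activator and a direct output of CLOCK and BMAL1, was at 45.4, 62.0 and 84.8 TPM in WT vehicle mice, at 58.0, 71.9 and 110 in Brd1+/- vehicle mice, at 51.7, 67.3 and 94.4 in WT mice on IMN and at 55.8, 71.2 and 86.4 in Brd1+/- mice on IMN. All groups overlapped, and the spread within each was wide. Brd1+/- against WT mice differed by 0.21 on vehicle (SE 0.141, exact permutation p = 0.179) and by 0.15 over both treatments (SE 0.088, permutation p = 0.117). IMN against vehicle over both genotypes differed by less than 0.01 in size (95% interval -0.18 to 0.16), and its sign turned under median-ratio scaling and quantile normalization.

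The antiphase pairs were used to read whether libraries sat at different points of the daily cycle. For each library, an antiphase index was taken as the mean log2 level of Dbp, Nr1d1 and Per2 minus that of Arntl; libraries collected at clearly different phases would be spread along it. It was 0.89 ± 0.25 (SD) in WT vehicle mice, 1.13 ± 0.31 in Brd1+/- vehicle mice, 0.97 ± 0.20 in WT mice on IMN and 0.94 ± 0.11 in Brd1+/- mice on IMN. Over all libraries it ran from 0.60 in WT IMN replicate 9 to 1.66 in Brd1+/- vehicle replicate 6, a range of 1.06. The group means spread over 0.24, about the same as the SD within groups of 0.23. Without Brd1+/- vehicle replicate 6 the mean of its group was 1.06 ± 0.25, and the group means spread over 0.17 beside an SD within groups of 0.21. The index is given as a description, with no test.

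The pairs themselves did not all run opposite ways. Across the 36 libraries with group means removed, Arntl and Dbp had a Pearson r of -0.03 (Spearman rho 0.03, permutation p = 0.884), and Arntl and Nr1d1 an r of 0.09 (rho 0.01, permutation p = 0.628). Arntl and Per2 ran together, with r = 0.62 (rho 0.59, permutation adjusted p = 0.001 over 45 pairs), and 0.59 without the 2 libraries farthest from the Arntl median. It was 0.60 without WT vehicle replicate 1 and 0.69 without Brd1+/- vehicle replicate 6. For Arntl and Per2, r was 0.62 in WT and 0.18 in Brd1+/- mice on vehicle, and 0.86 and 0.82 on IMN. The value in WT vehicle mice turned to -0.40 without replicate 1 (n = 7, exact permutation p = 0.349), and that in Brd1+/- vehicle mice was 0.52 without replicate 6.

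Within single groups the Arntl and Dbp pair took both signs. In Brd1+/- vehicle mice r was -0.75 (n = 9, exact permutation p = 0.025, adjusted p = 0.102 over 12 such tests), or -0.65 without replicate 6 (n = 8, exact permutation p = 0.086), and in Brd1+/- mice on IMN it was 0.70 (n = 9, exact permutation p = 0.038, adjusted p = 0.114). It was 0.17 in WT mice on IMN. In WT vehicle mice it was 0.18, and -0.66 without replicate 1 (n = 7, exact permutation p = 0.113). Arntl and Nr1d1 had their most negative r, -0.63, in WT vehicle mice (n = 8, exact permutation p = 0.095), and -0.56 without replicate 1. Brd1+/- vehicle replicate 6 held the lowest Arntl level of its group, 25.7 TPM, and the highest Dbp level, 110.

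**Figure D3:**
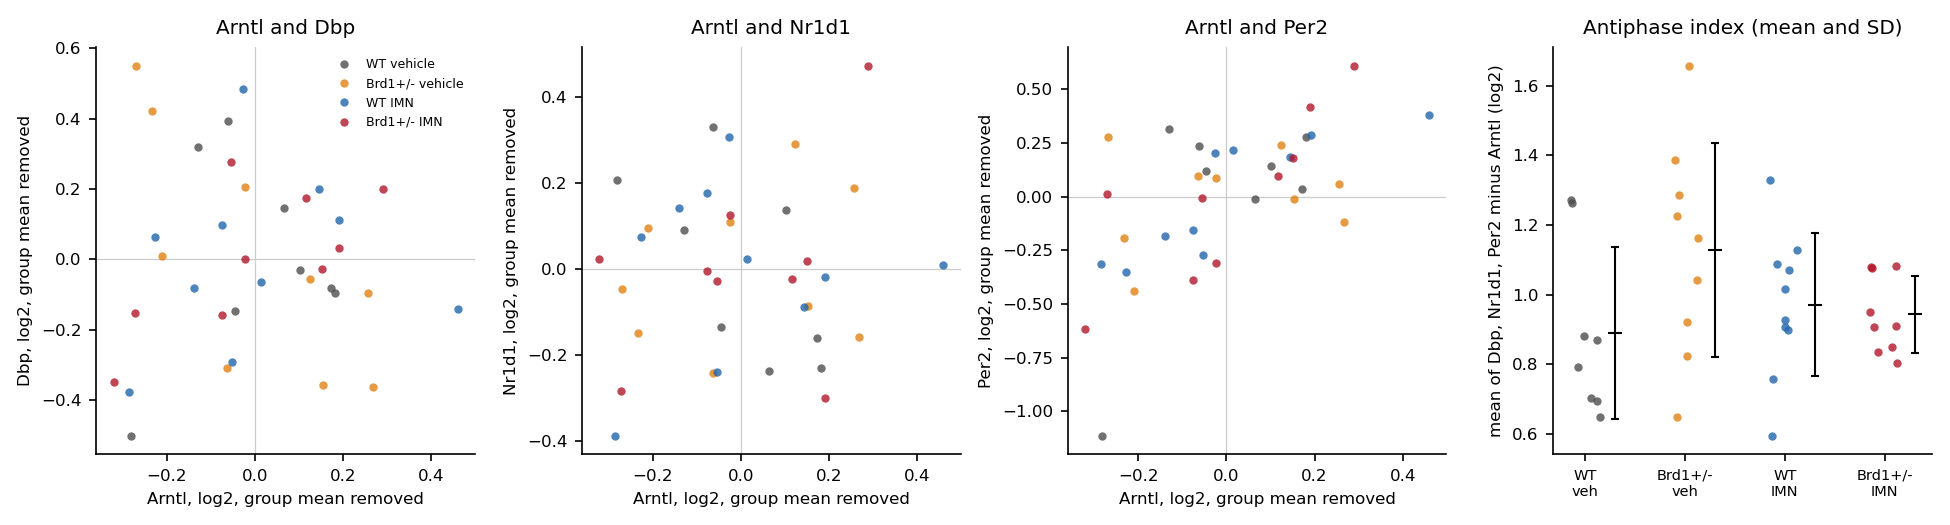
The first panels plot Dbp, Nr1d1 and Per2 against Arntl (log2, group means removed), 1 point per library coloured by group, and the last plots the antiphase index (log2) by group with mean and SD. Dbp and Nr1d1 show no trend with Arntl (r = -0.03 and 0.09), Per2 rises with it (r = 0.62), and the index of Brd1+/- vehicle mice reaches 1.66.

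Correlation between the clock genes was mainly positive. Of 45 pairs, 15 had a permutation adjusted p under 0.05, of which 14 were positive and 1 negative, and the median r over all pairs was 0.24. The closest pair was Npas2 with Cry2, an activator and a repressor (r = 0.80, rho 0.73, 0.80 without the 2 libraries farthest in Npas2), and r lay between 0.74 and 0.88 in each group, but at 0.34 in WT vehicle mice without replicate 1. Per2 with Cry1 followed (r = 0.72, rho 0.59) and Per2 with Cry2 (r = 0.65, rho 0.56). The negative pair was Clock with Dbp (r = -0.52, rho -0.49, permutation adjusted p = 0.014), negative in each of the 4 groups and -0.42 without the 2 farthest libraries. Without the 2 farthest libraries, 13 of the 15 kept an unadjusted permutation p under 0.05, and 13 had 1 sign in all 4 groups. Without WT vehicle replicate 1, 12 of the 45 pairs had an adjusted p under 0.05 (11 positive), Per2 with Cry1 was at 0.57 and Per2 with Cry2 at 0.56; without Brd1+/- vehicle replicate 6 the count was 15. All genes in a pair share a library and its composition. No such count was taken over pairs of other genes, so the count cannot be called particular to the clock genes.

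**Figure D4:**
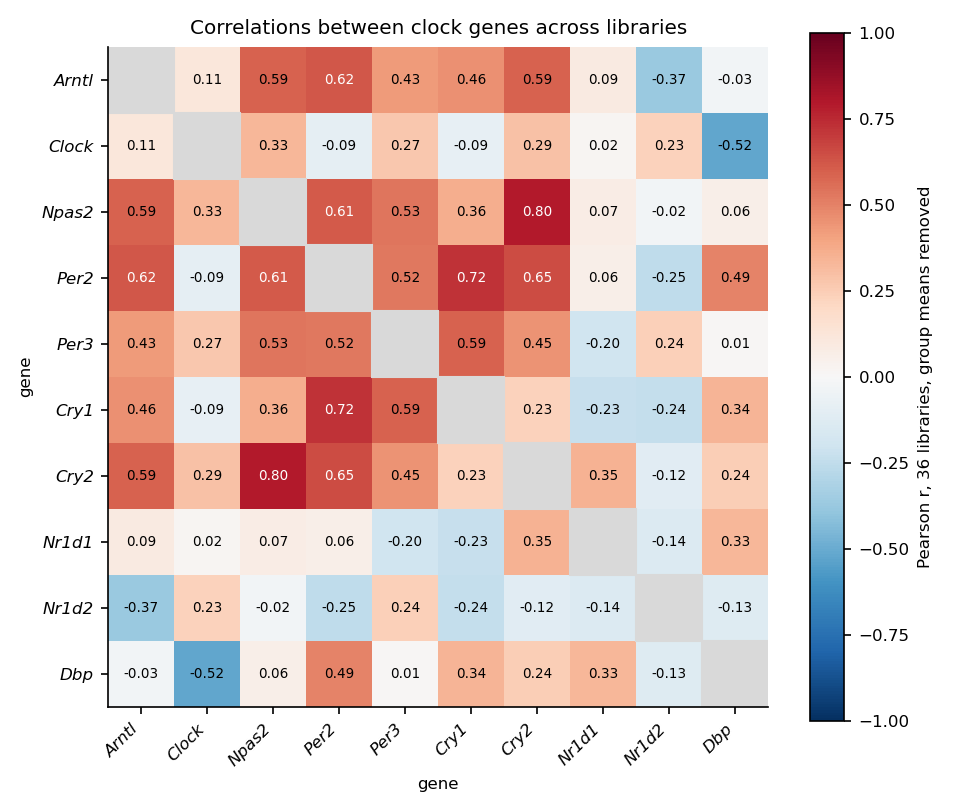
Pearson r between each pair of the 10 clock genes across 36 libraries after removal of group means, as a colour scale from negative to positive with the gene names on both axes. Pairs among Arntl, Npas2, Per2, Per3, Cry1 and Cry2 are all positive, from 0.23 for Cry1 and Cry2 to 0.80 for Npas2 and Cry2. Without WT vehicle replicate 1, Cry1 and Cry2 are at -0.001. Clock and Dbp are at -0.52.

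Of the 17686 other genes whose mean level reached 1 TPM, those most like the antiphase index across the 36 libraries, with group means removed, were Ciart (r = 0.64), Bhlhe41 (0.64), Sod3 (0.58) and Mvd (0.58). The most opposite were Gm48552 (-0.66), Nap1l1 (-0.66), Gm48098 (-0.65), AU041133 (-0.65) and Fbxl2 (-0.63). The central 95% of these genes lay between -0.40 and 0.34. Ciart and Bhlhe41 are repressors of the clock with an E-box in the promoters printed above. Of the other clock genes with an E-box in the searched promoters, Coq10b was at 0.36 and Per1 at 0.33. Tef at 0.10, Cipc at 0.10 and Cry1 at 0.02 lay nearer 0. The E-box repressor Bhlhe40 was at -0.001. The mean log2 level of the glucocorticoid-responsive genes had an r of 0.42 with the index, and those of the choroid plexus, striatal neuron and oligodendrocyte markers 0.34, 0.32 and 0.31; their part in these likenesses was not tested. Without Brd1+/- vehicle replicate 6 the r of Ciart was 0.62 and that of Bhlhe41 was 0.54. Ciart had group means of 21.9 to 24.8 TPM and Bhlhe41 of 9.3 to 12.2 TPM.

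Other genes of the clock, a list of 22 with measured levels, held 1 call. It came under IMN over both genotypes, where 0.254% of all genes were called. Coq10b fell under IMN over both genotypes by 0.23 on the log2 scale (SE 0.045, limma adjusted p = 0.0131), a level lower by 14.6%. It was at 26.8, 31.2 and 38.6 TPM (lowest, median and highest) in WT vehicle mice, at 27.8, 30.5 and 35.5 in Brd1+/- vehicle mice, at 23.3, 27.7 and 29.0 in WT mice on IMN and at 24.7, 26.1 and 29.4 in Brd1+/- mice on IMN. Each of the 19 mice on IMN was under the vehicle mean of its genotype, though the groups overlapped, and the permutation p of 1e-05 was the smallest that 100000 draws can give. The call held at an adjusted p of 0.00677 to 0.0300 with each of the 36 libraries left out in turn, and was lost at 0.0537 with the replicate number as a block. Of the 22 genes, 8 had an unadjusted limma p under 0.05 in this comparison, 2 of them higher and 6 lower on IMN, beside 9.24% of all genes. In the other 6 comparisons 0 of the 22 were called by limma, beside 0% to 0.00782% of all genes. At an unadjusted p under 0.05 there were 6 for IMN in WT mice, all lower, beside 6.6% of all genes. Elsewhere there were 0 to 3, beside 3.2% to 5.52% of all genes.

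Among the other repressors, Per1, the most rapidly induced PER gene, was at 64.9, 83.7 and 102 TPM (lowest, median and highest) in WT vehicle mice, at 67.6, 84.7 and 95.8 in Brd1+/- vehicle mice, at 56.4, 73.1 and 95.1 in WT mice on IMN and at 58.6, 71.6 and 127 in Brd1+/- mice on IMN, and the groups overlapped. Its difference over both genotypes was -0.19 (SE 0.080, limma adjusted p = 0.431, permutation p = 0.026), with 17 of 19 IMN libraries below. Bhlhe40, an E-box repressor that is also an activity-induced gene, differed by -0.23 (permutation p = 0.028, 15 of 19 below). Per1, Per2 and Bhlhe40, which are known to be inducible by neuronal activity, all had lower means on IMN, and none passed the adjusted test. In all, 7 of the 10 clock genes and 12 of the 22 others had a lower mean in this comparison. The part of neuronal activity in these differences was not tested. In Brd1+/- against WT mice over both treatments, Bhlhe41 differed by 0.27 (permutation p = 0.039) and Timeless by 0.41 (permutation p = 0.041), the latter at means of only 1.7 to 2.7 TPM. These were 0.21 (permutation p = 0.078) and 0.40 (permutation p = 0.054) without Brd1+/- vehicle replicate 6.

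Of the ROR receptors, which compete with REV-ERB proteins and activate Arntl, Rorb differed by -0.33 under IMN over both genotypes (SE 0.094, limma adjusted p = 0.144, permutation p = 0.0005, 18 of 19 below), at means of 5.5 and 5.0 TPM on vehicle and 4.0 and 4.0 on IMN. Usp2, a deubiquitinase gene with a strong daily rhythm, differed by -0.29 under IMN in WT mice (exact permutation p = 0.001, 10 of 10 below) and by -0.23 over both genotypes (permutation p = 0.008). With each library left out in turn, the Usp2 difference over both genotypes ran from -0.26 to -0.18. Csnk1d, a kinase of PER proteins, differed by -0.07 (permutation p = 0.033), and Arntl2, the paralog of Arntl, by 0.27 (permutation p = 0.031; 0.23 and p = 0.057 without Brd1+/- vehicle replicate 6).

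The PAR-type D-box factor Hlf, a relative of Dbp, had the clearest genotype difference of the list. It was at a mean of 63.8 ± 8.6 TPM in WT and 79.8 ± 17.1 in Brd1+/- mice on vehicle, and at 75.1 ± 15.2 and 98.5 ± 21.9 on IMN. Over both treatments Brd1+/- against WT mice differed by 0.34 (SE 0.093, permutation p = 0.001, limma adjusted p = 0.897), with 15 of 18 above, and IMN against vehicle by 0.26 (permutation p = 0.011, 15 of 19 above). Hlf differed by genotype on vehicle (0.31, exact permutation p = 0.023) and on IMN (0.38, exact permutation p = 0.021). With each library left out in turn, the Hlf difference on vehicle ran from 0.24 to 0.35. Also by genotype, Bhlhe41 differed on IMN by 0.34 (exact permutation p = 0.034), and Fbxl21, a ubiquitin ligase gene for CRY proteins, on vehicle by -0.28 (exact permutation p = 0.020). In WT mice under IMN, Per1 differed by -0.24 (exact permutation p = 0.039), Bhlhe40 by -0.32 (exact permutation p = 0.049) and Rorb by -0.41 (exact permutation p = 0.003). In all, 132 permutation tests were run on these 22 genes, and they too have no share over all genes beside them.

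Neuronal activity genes moved with the same comparison as Per2. In a list of 13 immediate-early genes such as Fos and Arc, 13 of 13 had a lower mean on IMN over both genotypes, 3 with a limma adjusted p under 0.05 (0.254% of all genes), and the median difference was -0.42 beside -0.002 over all genes. The list's score, the mean log2 level, was 5.85 ± 0.47 and 5.82 ± 0.24 on vehicle and 5.37 ± 0.28 and 5.34 ± 0.36 on IMN (WT and Brd1+/-). Across libraries with group means removed, the score followed Per2 with r = 0.84 (rho 0.72, permutation adjusted p = 0.0001 over 33 relations), 0.68 without the 2 farthest libraries, 0.75 without WT vehicle replicate 1, and 0.95, 0.40, 0.80 and 0.88 within the groups. The value in WT vehicle mice was 0.60 without replicate 1. Per1 followed it at 0.69, Cry2 at 0.61, Npas2 at 0.57 and Arntl at 0.54, all with a permutation adjusted p under 0.05. Within WT vehicle mice without replicate 1, r of Arntl with the score was -0.92 (n = 7). In WT vehicle replicate 1, where Per2 was lowest, the score was 4.77, the lowest of its group, and the oligodendrocyte score described next was 7.88, the highest of its group. The part of these in the Per2 difference was not tested.

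Oligodendrocyte transcripts ran against Arntl. The score over 8 oligodendrocyte genes such as Mbp and Mog was 5.56 ± 1.16 and 5.88 ± 0.87 on vehicle and 6.15 ± 1.18 and 6.05 ± 1.28 on IMN (WT and Brd1+/-), and their summed level ran from 189 to 3495 TPM between libraries. All 8 had a median of at least 1 TPM, and under IMN over both genotypes 8 of 8 had a higher mean with 0 called and a median difference of 0.38. Arntl fell along this score with r = -0.87 (rho -0.86, permutation adjusted p = 0.0001 over 33 relations), -0.84 without the 2 farthest libraries and -0.92, -0.91, -0.89 and -0.83 within the groups. It was -0.86 without either of the 2 libraries that stood apart. The score also ran against Per2 (r = -0.66), Cry2 (-0.52) and Npas2 (-0.48), of which the last 2 had an adjusted p of 0.060 and 0.082 without WT vehicle replicate 1, and r with Clock was 0.03. In bulk tissue, fewer cells of a type and less RNA per cell cannot be told apart, and the part of oligodendrocyte transcripts in the Arntl differences was not tested.

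Genes that respond to glucocorticoids, of which 9 were followed, had scores of 4.68 ± 0.17 and 4.61 ± 0.26 on vehicle and 4.84 ± 0.18 and 4.87 ± 0.20 on IMN (WT and Brd1+/-). Under IMN over both genotypes 8 of 9 had a higher mean, 2 of them with a limma adjusted p under 0.05 (0.254% of all genes). The median difference was 0.23 beside -0.002 over all genes, and at an unadjusted p under 0.05 there were 4 higher and 1 lower. Of the 10 clock genes and Per1, Cry1 alone had a permutation adjusted p under 0.05 with this score (r = 0.40, rho 0.35, adjusted p = 0.044), at r = 0.34 and an unadjusted permutation p of 0.067 without the 2 farthest libraries, and at 0.36 and 0.31 without WT vehicle replicate 1 and without Brd1+/- vehicle replicate 6 (adjusted p = 0.124 and 0.161). For Per2 r was 0.31 (adjusted p = 0.099).

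**Figure D5:**
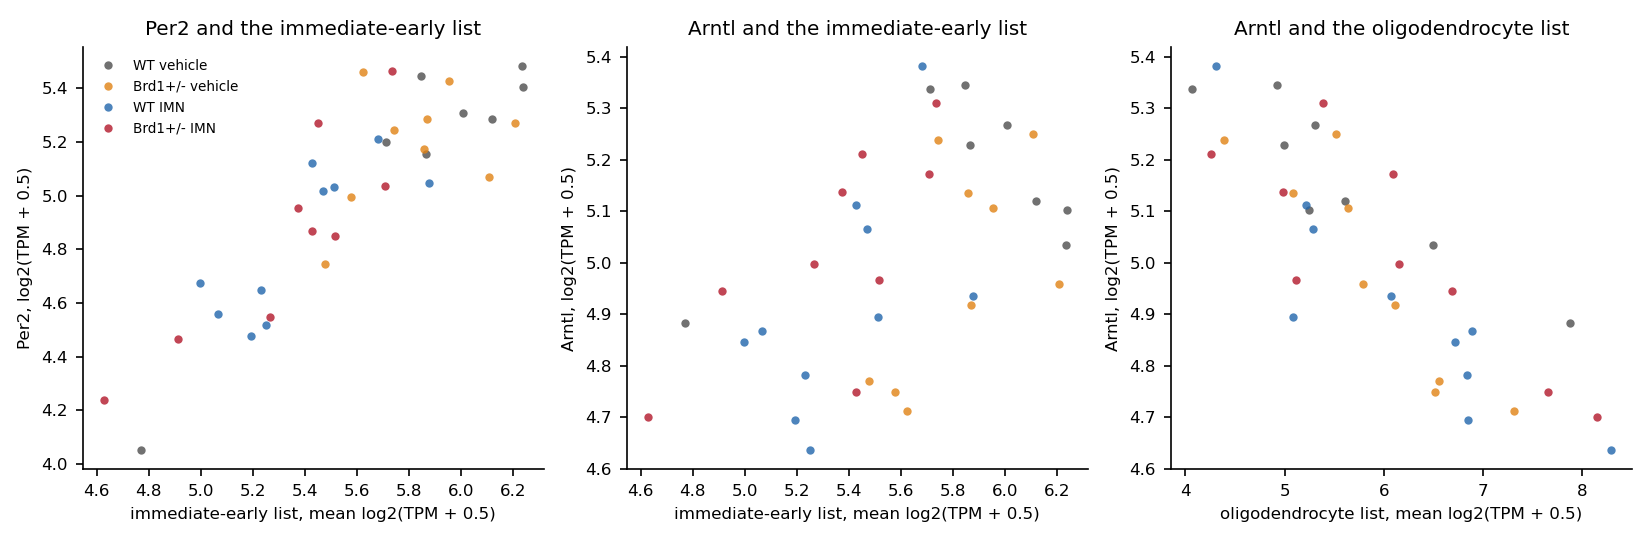
Log2(TPM + 0.5) of Per2 against the immediate-early score and of Arntl against the oligodendrocyte score (mean log2 level of each list), 1 point per library coloured by group. Per2 rises with the immediate-early score (r = 0.84 with group means removed) and Arntl falls with the oligodendrocyte score (r = -0.87).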

How the data were processed

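Right aCC punches of 36 female mice were sequenced, 1 library per mouse. Per the methods and the submitters' processing notes, the authors filtered single-end reads, aligned them to GRCm38 with HISAT2 2.1.0 and quantified genes with StringTie 1.3.4. The deposited values are TPM computed by the authors, with no scaling between libraries; use of strand and of multi-mapping reads is not given in the sources used here, and read depth is unknown. Genes were kept when 8 or more libraries reached 0.1 TPM (25572). Values were tested as log2(TPM + 0.5) with limma 3.58.1 (trended variance, R 4.3.3) over all kept genes, with Benjamini-Hochberg adjustment and a threshold of 0.05. Comparisons between 2 groups used those groups; the interaction and both pooled comparisons used all 36 libraries. Single genes were also tested by a two-sided exact permutation test, or by 100000 draws within strata for the pooled comparisons. The procedure was tested on simulated data. Correlations used residuals from group means, with two-sided permutation p-values. TPM are shares of a library, so a rise of abundant transcripts lowers all others; mitochondrial transcripts took 21.7% to 30.5%. The members and gene lists were chosen with earlier results of these data known. Genes named with full values were the 10 clock genes, Per1, the other clock genes with a permutation p under 0.05, and the 5 genes at either end of the correlation with the antiphase index; some items that this rule names are not reported here. Other clock genes, immediate-early, glucocorticoid-responsive and cell type lists served as context. P-values measure the spread between mice. No library pair held identical values. Sequences are from RefSeq (GRCm38.p6). Alternatives were other pseudocounts, filters and scalings, the replicate number as a block, and leaving out each library. Replicate numbers did not pair the samples.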

Additional observations from a re-analysis of the deposited data

Results flagged for a closer look

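In 4 of 44 groups tested, 1 library lay far from the others of its group by Dixon's criterion, which chance alone gives in about 1 in 20 groups. Per2 was at 16.1 TPM in WT vehicle replicate 1, below the other libraries of the group at 35.1 to 44.2. Per3 was at 32.1 TPM in Brd1+/- IMN replicate 3, above the others at 24.4 to 27.9. Cry1 was at 7.45 TPM in WT IMN replicate 4, below the others at 10.3 to 13.9. Cry2 was at 54.4 TPM in Brd1+/- vehicle replicate 7, below the others at 67.7 to 82.7.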

How the results depend on the processing

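Over up to 8 alternatives per comparison, no clock gene gained a limma adjusted p under 0.05 in any comparison. Under median-ratio scaling and quantile normalization, the sign of the Dbp difference under IMN over both genotypes turned to 0.0009 and 0.0245, r of Arntl with Dbp turned to 0.0943 and 0.1096, and the interaction count at an unadjusted p under 0.05 went from 1 to 0; the cause was not tested. Replicate numbers did not pair the samples: of 51 same-numbered pairs, 4 had a correlation over 0.1 (median -0.011), and 1 library correlated best with its own number. With the replicate number as a block, the counts at an unadjusted p under 0.05 went from 1 to 0 for Brd1+/- against WT mice on vehicle and for IMN in Brd1+/- mice, the count of other clock genes called under IMN over both genotypes went from 1 to 0, with Coq10b at -0.22 (limma adjusted p = 0.0537), and 37 genes were called in that comparison in place of 65.

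Each library was left out in turn, in 72 fits of 2 groups and 36 of all libraries. The limma adjusted count of clock genes was 0 to 1 for IMN over both genotypes and 0 elsewhere. The 1 was Per2 without WT vehicle replicate 1 (-0.4125). Over the 36 fits of that comparison, the Per2 difference ran from -0.4125 to -0.2944. Counts at an unadjusted p under 0.05 were 0 to 3 for Brd1+/- against WT mice on vehicle, 0 to 2 over both treatments, 0 to 2 for IMN in Brd1+/- mice, 2 to 4 for IMN over both genotypes and 0 to 2 for the interaction. For IMN in WT mice the count was 3 with all libraries and 4 without WT vehicle replicate 1. With all libraries, 3.2% to 9.24% of all genes had such a p, by comparison, and the share in each of these fits is not given. Of the 70 differences of the 10 clock genes, 25 changed sign in at least 1 of these fits, none of them over 0.1135 in size with all libraries. Among them were Per2 by genotype on vehicle (-0.1392 to 0.0749), Nr1d1 under IMN in Brd1+/- mice (-0.0922 to 0.0041), Dbp under IMN in WT mice (-0.0101 to 0.1177) and over both genotypes (-0.0407 to 0.0295). The r of Arntl with Dbp was -0.1315 to 0.0778 without Brd1+/- vehicle replicate 6 or WT vehicle replicate 1. Permutation tests and correlations without the libraries that stood apart were chosen after seeing the data. Unknown depth, 8 to 10 mice a group and the unlabelled collection time limit what the comparisons can show.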
